A study of Rattus norvegicus with 56 samples.

Results

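Astrocytes were followed through 10 of their marker genes (Gfap, Vim, Aqp4, Aldh1l1, Slc1a2, Slc1a3, Gja1, Gjb6, Serpina3n and Sox9) in microarray profiles of rat hippocampus and parietal cortex. The genes were chosen by name, as markers in common use, and each was measured through the array probes whose RefSeq transcript carries its symbol. All 10 had a probe, 14 probes among the 21109 that could be named, and 10 of the 16581 symbols on the array. Slc1a3 had 2 probes and Sox9 had 4, and the brightest probe stood for the gene.

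The study compared intermittent theta burst stimulation (iTBS), in which a coil above the skull gives short trains of bursts of magnetic pulses, with sham stimulation in male Long-Evans rats of 2 ages. Young rats (Y) had an age of 6 to 7 months. Aged rats had reached 26 to 27 months, and per the labels a water maze learning score divided them between those that did as well as the young (AU, unimpaired) and those that did worse (AI, impaired). All rats, sham rats included, were lightly anesthetized with isoflurane and sedated with dexmedetomidine, sham rats lay at a distance from the coil, and tissue was taken 48 h later. Each region had 4 Y_Sham, 4 Y_iTBS, 4 AU_Sham, 5 AU_iTBS, 4 AI_Sham and 3 AI_iTBS rats, 24 in all, with both regions of each rat on separate arrays. The tissue pieces were dissected from the dorsal hippocampus and the neocortex below the coil, so they hold every cell type of those pieces, and fewer astrocytes cannot be told apart from less RNA per astrocyte.

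Astrocytes are the glial cells that clear glutamate and potassium from around synapses, pass solutes to each other through gap junctions and wrap the brain's vessels with endfeet. In injury, inflammation and aging they become reactive, a state long recognized by thicker processes rich in the intermediate filament protein GFAP and, in rodents, by the secreted protease inhibitor Serpina3n. The other markers, apart from Vim, are read less often as signs of reactivity and more as signs of the cell itself.

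Signal is given on a log2 scale after each array was brought to the same mean and spread, so that 0 is the mean of an array's probes and negative values are dim probes. A probe's level may be compared between animals and regions but not with the level of another probe. All 10 genes were well above background on all 24 hippocampal arrays. In cortex 8 of them were well above background in all 24 animals, Gja1 in 23 (the spot of AI_iTBS 2 was marked as an outlier and left out) and Serpina3n in 12. Across all arrays used, 60.7 to 69.7% of probes were well above background. By the scan times in the files the arrays fell into 3 batches, on 7 slides. Of the rats 15 had both regions in scan batch 1. The other 9 (2 Y_Sham, 1 Y_iTBS, 1 AU_Sham, 3 AU_iTBS, 1 AI_Sham and 1 AI_iTBS) had both in later batches. Apart from AU_iTBS 3, these later rats had cortex in batch 2 and hippocampus in batch 3. In them scan batch and region cannot be told apart. Hippocampus and cortex lay on different slides apart from 1 array of each, so that slide and region cannot be told apart. Slide also went with group. In hippocampal batch 1, Y_Sham, Y_iTBS and AU_Sham lay on slide 1, and AU_iTBS, AI_Sham and AI_iTBS on slide 2. In cortex, slide 6 held 2 AU_iTBS arrays and no other group among the first arrays. In the sham rats, genes known for the hippocampus (Zbtb20 by 1.18, Wfs1 by 1.80 and Nr3c2 by 1.87, log2) were higher there in 12 of 12. Prox1, examined with them, did not follow: its mean difference was -0.06, higher in 3 of 12 and lower in 9. Genes known for cortical layers (Rorb by -0.97, Cux2 by -0.83) were lower in 12 of 12. These genes were picked after their values were seen.

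**Figure D1:**
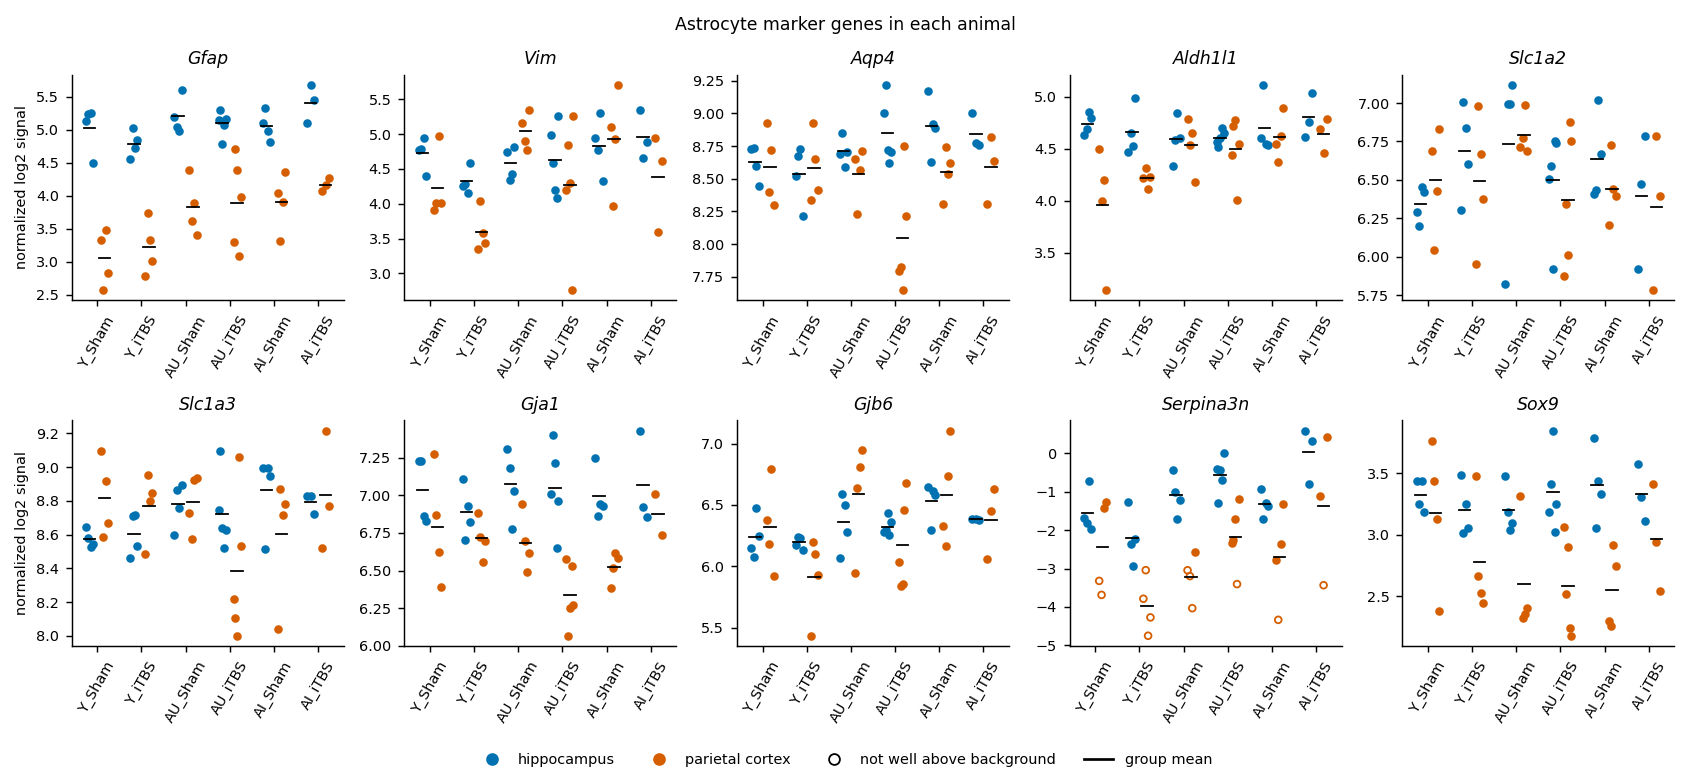
Normalized log2 signal (vertical axes) of each astrocyte marker gene in every animal of the 6 groups (horizontal axes), in hippocampus (blue) and parietal cortex (orange), with bars at group means and open circles where the probe was not well above background. Gfap lies higher in hippocampus in each group, and Serpina3n has the widest spread of the 10 genes, with open circles in cortex only.

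Gfap, Serpina3n, Gja1 and Sox9 were the members whose region difference, by the brightest probe, passed under every processing in which they were tested. The sequences just before the transcription start of the first 3 are shown because their signal differed together between the regions (Sox9 was not in the table used). RefSeq windows of 250 bases before the start on the rat build GRCr8 were searched on both strands for STAT (TTCNNNGAA), AP-1 (TGANTCA), NFI (by its palindromic site), TATA box (TATAAA) and SOX (ATTGTT) letters, and capitals mark a match. Gfap is at chr10:88361662-88361911 on the minus strand, Serpina3n at chr6:129088142-129088391 on the plus strand and Gja1 at chr20:36302314-36302563 on the plus strand.
Gfap: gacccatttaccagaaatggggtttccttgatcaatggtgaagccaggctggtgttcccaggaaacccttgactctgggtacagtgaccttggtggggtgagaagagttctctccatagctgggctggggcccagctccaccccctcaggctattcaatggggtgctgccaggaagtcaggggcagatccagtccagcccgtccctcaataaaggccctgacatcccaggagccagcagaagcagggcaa
Serpina3n: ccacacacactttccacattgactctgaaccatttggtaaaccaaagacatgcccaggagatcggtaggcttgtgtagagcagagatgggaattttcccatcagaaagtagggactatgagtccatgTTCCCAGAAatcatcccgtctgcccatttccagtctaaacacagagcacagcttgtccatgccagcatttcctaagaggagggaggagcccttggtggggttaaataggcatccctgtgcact
Gja1: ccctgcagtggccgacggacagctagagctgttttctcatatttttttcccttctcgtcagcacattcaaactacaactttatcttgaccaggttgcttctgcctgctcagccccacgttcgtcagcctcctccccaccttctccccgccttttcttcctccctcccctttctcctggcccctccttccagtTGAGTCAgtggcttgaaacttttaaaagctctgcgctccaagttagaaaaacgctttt
The Serpina3n window holds 1 STAT match with its first base at position -123 from the start, and 7.52% of all 27457 promoters hold that motif. Gja1 holds 1 AP-1 match at position -58, a motif in 6.36% of promoters. Gfap holds none of the 5 motifs in these letters, and in the windows of the 9 members in the table no motif matches overlapped. A match is a description of the sequence, and no binding was measured.

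The first comparison asked how the markers differ between the regions, within each animal, in the 12 sham rats. Serpina3n and the filament gene Gfap were both higher in hippocampus, Gfap by 2.83-fold and Serpina3n by 2.74-fold with 6 of its 12 cortical arrays well above background, while the glutamate transporters and Vim had differences near 0 in these rats. Sox9, Gja1 and Aldh1l1 were higher in hippocampus by smaller amounts. By limma, with Benjamini-Hochberg adjustment over 33720 probes, 5 of the 10 members passed adjusted p under 0.05, all higher in hippocampus, where 35.6% of all probes tested passed in either direction and 19.1% passed as higher. Differences between regions were thus common over the array, and the members' median difference was 0.25 on the log2 scale against 0.03 over all probes tested.

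Gfap encodes the main intermediate filament protein of mature astrocytes. In hippocampus it stood at 5.13, 5.25, 5.25 and 4.50 in the Y_Sham rats, at 5.20, 5.04, 4.98 and 5.60 in AU_Sham and at 5.11, 5.33, 4.99 and 4.82 in AI_Sham. The cortex of the same rats, in the same order, gave 3.33, 2.57, 3.47 and 2.83 in Y_Sham, 4.39, 3.62, 3.90 and 3.41 in AU_Sham and 4.04, 3.31, 3.91 and 4.36 in AI_Sham. Every sham hippocampus was above every sham cortex, and the nearest values were those of the hippocampus of Y_Sham 4 and the cortex of AU_Sham 1. The difference was 1.50 (SE 0.153, 95% interval 1.18 to 1.82, adjusted p = 9.53e-08, limma), was positive in 12 of 12 sham rats and ranged from 0.46 in AI_Sham 4 to 2.67 in Y_Sham 2. Over all 6 groups it was 1.42 (adjusted p = 6.41e-10) and positive in 24 of 24 rats, with 1.47 in the rats scanned in batch 1 and 1.33 in the later batches.

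Serpina3n encodes a secreted serine protease inhibitor that reactive astrocytes release. Its mean over the 12 sham rats was -1.32 ± 0.477 (SD) in hippocampus and -2.78 ± 1.03 in cortex, where 6 of the 12 arrays were well above background, so that the cortical mean lies partly at the detection limit. The sham hippocampi ran from -1.98 to -0.45 and the sham cortices from -4.33 to -1.28, and the ranges overlapped. The within-animal difference was 1.46 (SE 0.261, 95% interval 0.91 to 2.00, adjusted p = 0.00015, limma) and was positive in 10 of 12 sham rats, the exceptions being Y_Sham 4 (-0.70) and AI_Sham 4 (-0.05). Over all groups it was 1.53 (adjusted p = 7.31e-07, 21 of 24 rats positive), 1.37 in batch 1 and 1.82 later. The Serpina3 family has close relatives in the rat, and whether they share signal on this probe was not tested.

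Sox9, the transcription factor that specifies glia and remains on in adult astrocytes, differed by 0.53 (SE 0.11, 95% interval 0.30 to 0.76, adjusted p = 0.000665, limma) and was higher in hippocampus in 10 of 12 sham rats. Its probes disagreed. Of the other 3, the first was higher in hippocampus by 0.42 (adjusted p = 0.0258, limma). That probe was well above background on only 14 of 24 hippocampal and 8 of 24 cortical arrays. The next was higher by 0.40 (adjusted p = 0.0793) and the last had -0.25 (adjusted p = 0.116). Over all groups the brightest probe gave 0.52 (adjusted p = 1.12e-05) and that last one passed in the opposite direction, with -0.27 (adjusted p = 0.0133), so that the direction of Sox9 depended on the probe. Gja1, which encodes the gap junction protein connexin 43, differed by 0.37 (SE 0.0861, 95% interval 0.19 to 0.55, adjusted p = 0.00219) and was higher in hippocampus in 11 of 12. Gjb6, the partner gap junction gene for connexin 30, did not follow: its difference was -0.12 (95% interval -0.33 to 0.09), below that of Gja1 but not past the test.

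Aldh1l1, a folate enzyme used as a pan-astrocyte marker, was higher in hippocampus by 0.31 (SE 0.118, 95% interval 0.06 to 0.56, adjusted p = 0.0452, limma) in 9 of 12 sham rats. The call was marginal, since it was lost on leaving out any of 9 of the 12 sham rats, and without Y_Sham 4, whose cortical value of 3.14 was the lowest of all 24, the difference was 0.21 (adjusted p = 0.134). Over all groups it was 0.27 (adjusted p = 0.0106), with 0.41 in batch 1 and 0.04 in the later batches. Aqp4, the water channel of the endfeet, had 0.19 (95% interval -0.06 to 0.43, adjusted p = 0.226) in sham rats and passed over all groups with 0.26 (adjusted p = 0.0122), where the rats of batch 1 gave 0.08 and the later ones 0.62. The difference of Aqp4 was therefore larger in the later batches, where all rats but AU_iTBS 3 had the regions scanned in different batches. The later AU_iTBS rats gave 1.21, 1.39 and 1.07, the last from AU_iTBS 3. The other later rats gave -0.20 and 0.33 in Y_Sham, 0.19 in Y_iTBS, 0.04 in AU_Sham, 0.87 in AI_Sham and 0.69 in AI_iTBS. The cause of the larger later values was not tested.

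The remaining members showed no region difference past the test. Slc1a2 (the glutamate transporter GLT-1) had -0.01 (95% interval -0.23 to 0.21) and Slc1a3 (the transporter GLAST) had 0.00 (95% interval -0.24 to 0.24), with -0.01 for its other probe. Vim, the filament gene shared by immature and reactive astrocytes, vessels and meninges, had -0.02 (95% interval -0.35 to 0.31). Over all groups 6 of 10 members passed, all higher in hippocampus by their brightest probe, with the Sox9 probe named above as the exception in the other direction, against 49.1% of all probes in either direction and 26.1% higher.

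**Figure D2:**
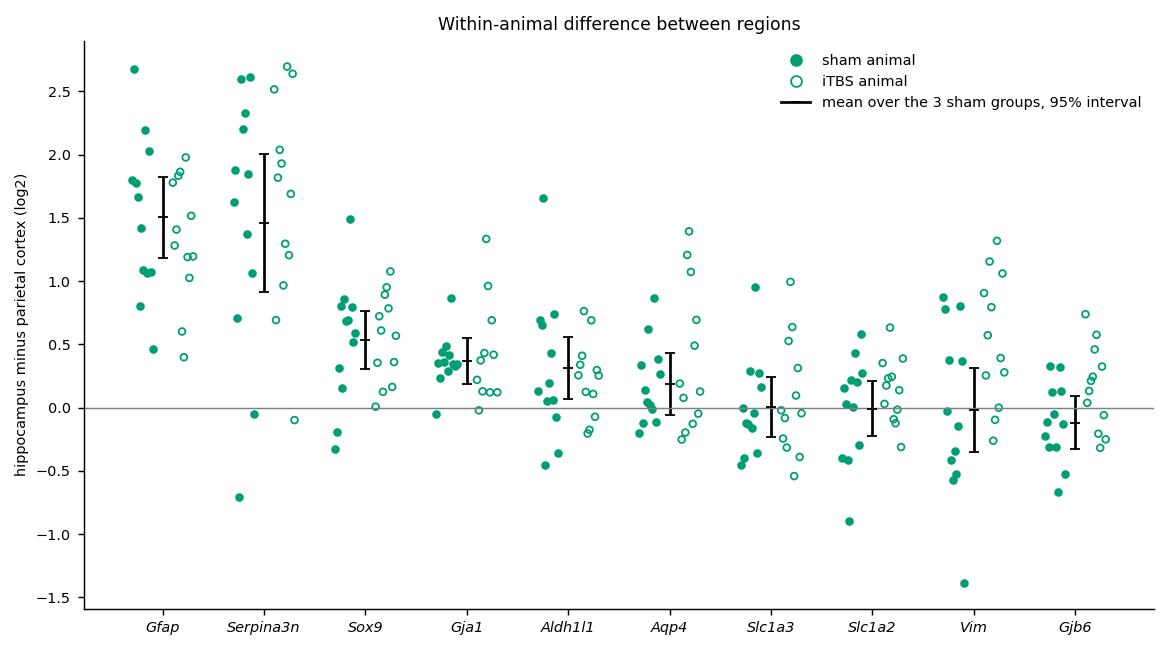
Hippocampus minus parietal cortex within each rat (vertical axis, log2) for the 10 members, ordered by their sham difference (horizontal axis), with filled points for sham rats, open points for iTBS rats, and a bar with its 95% interval for the mean of the 3 sham groups. Gfap lies above 0 in all 24 rats, and the bars run from 1.50 for Gfap to -0.12 for Gjb6.

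Beyond the members, 34 of 35 further astrocyte genes were tested in sham rats. Of these 9 were higher in hippocampus and 2 lower, a share near the 35.6% of all probes, with a median of 0.07, and the called genes included Id3 (1.29), Pla2g7 (0.83), Slc14a1 (0.78), Kcnj16 (0.54) and Nfib (0.53), against Aldoc (-0.35) and Acsbg1 (-0.20). Of 30 tested genes linked to reactive astrocytes, 11 were higher and 5 lower, with a median of 0.31. Ptx3, a secreted pentraxin, led with 2.42, and Sphk1, a sphingosine kinase, was the lowest named with -1.03.

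Markers of other cell types were called between the pieces too, and are to be read against the 35.6% of all probes called. Oligodendrocyte markers were higher in hippocampus for 9 of 12 genes (median 0.56, with Mog at 0.72), and their mean level ran from 6.61 to 7.08 in sham hippocampus and from 6.05 to 7.12 in sham cortex. Choroid plexus and ependyma markers were higher for 8 of 10 genes and lower for 1 (median 1.66, with Otx2 at 3.02 and Ttr at 1.90), and 7 to 10 of the 10 were well above background on each sham hippocampal array and 6 or 7 on each sham cortical array. Their mean level ran from 0.55 to 2.85 in sham hippocampus and from -0.66 to 0.75 in sham cortex. Neuron markers had 2 of 10 higher and 4 lower (Snap25 at -0.54, Tubb3 at -0.57), microglia markers 3 of 12 higher (under the share of all probes), endothelial and mural markers 4 of 10 lower, and meningeal fibroblast markers 1 of 6 higher and 3 lower. The part of these cell types in the members' differences was not tested.

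The second comparison asked what age did. Serpina3n was the 1 member that passed, and in hippocampus only: it was 2.2-fold higher in aged than in young rats over both treatments. Among sham rats alone it was 1.27-fold higher in hippocampus and did not pass. Its hippocampal means were -1.55 in Y, -1.09 in AU and -1.33 in AI with sham, and -2.20, -0.57 and 0.04 with iTBS. Young and aged rats thus lay further apart with iTBS. The aged minus the young response to iTBS did not pass (1.59, adjusted p = 0.757, limma). Gfap, Aqp4, Slc1a3 and Gjb6 had small positive differences in aged hippocampus and did not pass. In aged cortex Serpina3n, Gfap, Vim and Aldh1l1 had the widest positive differences and did not pass either. The share of all 32417 hippocampal probes called in this comparison was 0.524%, with 0.386% called as higher in aged rats, and of all 32603 cortical probes 0.414%.

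For hippocampal Serpina3n, the young rats gave -1.70, -1.80, -0.73 and -1.98 in Y_Sham and -1.27, -2.35, -2.93 and -2.23 in Y_iTBS. The AU rats gave -0.45, -1.0, -1.70 and -1.21 in sham and -0.40, -1.31, -0.43, -0.71 and 0.00 in iTBS. The AI rats gave -0.93, -1.72, -1.29 and -1.37 in sham and 0.59, -0.80 and 0.32 in iTBS. The 5 lowest values were all from young rats, the 2 highest from AI_iTBS, and the young and aged ranges overlapped, with Y_Sham 3 and Y_iTBS 1 as high as many aged rats. The -2.93 of Y_iTBS 3 was the lowest signal its array called well above background, so that the lowest young value lies at the detection limit.

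The age difference of Serpina3n was 1.14 (SE 0.229, 95% interval 0.66 to 1.61, adjusted p = 0.025, limma), with 1.09 in scan batch 1 and 1.14 in the later batches. In batch 1 the young hippocampi all lay on slide 1, and those of AU_iTBS, AI_Sham and AI_iTBS on slide 2. Age and slide were thus partly mixed there, and the call was lost with slide as a block, a fit given below. Leaving out 1 rat at a time gave 1.01 to 1.29 (adjusted p = 0.00879 to 0.0689), and the call was lost without any 1 of Y_Sham 1, 2 or 4 or Y_iTBS 2, 3 or 4. Among sham rats alone the difference was 0.34 and did not pass, where 0.00308% of probes did. The order of group means was Y_iTBS at -2.20 ± 0.688 (SD), Y_Sham at -1.55 ± 0.561, AI_Sham at -1.33 ± 0.325, AU_Sham at -1.09 ± 0.52, AU_iTBS at -0.57 ± 0.483 and AI_iTBS at 0.04 ± 0.733. No step between neighbours in that order was clearly larger than the larger of their SDs, and the step from AU_Sham to AU_iTBS (0.52) was equal to it.

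In cortex Serpina3n was well above background in 2 of 8 young and 10 of 16 aged rats. Its age difference there was 0.83 (adjusted p = 0.398, limma), 0.25 in batch 1 and 1.39 later. None of the 4 Y_iTBS cortices measured it above background. The mean of the lowest signals that the Y_iTBS arrays called well above background served as their limit. The AI_iTBS mean lay 3.16-fold above that limit (2 of 3 arrays well above background) and the AU_iTBS mean 1.79-fold (4 of 5). The Y_Sham mean lay 1.52-fold above it (2 of 4) and the AI_Sham mean 1.26-fold (3 of 4). AU_Sham (1 of 4) lay below that limit and gave no fold. Each of these means includes arrays not well above background, so that the folds are not strict lower bounds.

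Gfap in cortex had an age difference of 0.81 (SE 0.2, 95% interval 0.40 to 1.23, adjusted p = 0.0874, limma). The young rats gave 3.33, 2.57, 3.47 and 2.83 in Y_Sham and 2.79, 3.75, 3.32 and 3.01 in Y_iTBS. Among iTBS-treated aged rats the values were 3.29, 4.70, 4.39, 3.09 and 3.98 in AU and 4.07, 4.17 and 4.26 in AI. Of the 16 aged cortices 11 lay above the highest young one, and AU_Sham 2 and 4, AU_iTBS 1 and 4 and AI_Sham 2 lay inside the young range. The rats of batch 1 gave 0.55 and the later ones 1.29, and the adjusted p passed on leaving out AU_iTBS 4 (0.86, adjusted p = 0.0303) or AI_Sham 2 (0.86, adjusted p = 0.0473). Among sham rats the cortical difference was also 0.81 (adjusted p = 0.353), 0.78 for AU against young (adjusted p = 0.489) and 0.85 for AI against young (adjusted p = 0.504).

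In hippocampus the age difference of Gfap was 0.28 (95% interval 0.05 to 0.51, adjusted p = 0.247, limma), and the Gfap gap between regions was 0.71 narrower in aged than in young sham rats, a difference that missed the test (-0.71, adjusted p = 0.718) where 0.00297% of probes passed. Gfap means in hippocampus were 5.03 ± 0.36 (SD) in Y_Sham, 4.79 ± 0.195 in Y_iTBS, 5.20 ± 0.279 in AU_Sham, 5.10 ± 0.191 in AU_iTBS, 5.06 ± 0.217 in AI_Sham and 5.41 ± 0.296 in AI_iTBS. The cortical means were 3.05 ± 0.422, 3.22 ± 0.415, 3.83 ± 0.427, 3.89 ± 0.691, 3.91 ± 0.439 and 4.17 ± 0.0956 in the same order. The step from Y_iTBS to AU_Sham in cortex was larger than either SD, and the 4 aged groups of cortex differed from each other by less than the SD of AU_iTBS.

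Vim in cortex had an age difference of 0.74 (adjusted p = 0.233, limma), 0.41 in batch 1 and 1.26 later. Its aged sham cortices stood at 5.16, 4.91, 4.77 and 5.34 in AU and 5.10, 3.96, 4.93 and 5.71 in AI, against 3.91, 4.01, 4.98 and 4.02 in Y_Sham. All but 1 aged sham cortex lay above all but 1 young one, the exceptions being AI_Sham 2 and Y_Sham 3. In hippocampus the Vim difference was 0.23.

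Aldh1l1 in cortex had 0.48 (adjusted p = 0.143, limma), with 0.55 and 0.44 in the batches. Its sham values were 4.50, 3.99, 4.20 and 3.14 in young, 4.79, 4.53, 4.65 and 4.18 in AU and 4.55, 4.38, 4.62 and 4.90 in AI rats. The AI values overlapped the young ones by AI_Sham 2 alone and the AU values by AU_Sham 4 alone. Its hippocampal difference was -0.03, and the region gap of Aldh1l1 was lower in aged than young sham rats by a margin that missed the test (-0.71, adjusted p = 0.651).

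The endfoot, transporter and junction genes did not pass with age in cortex. Differences there were -0.15 for Aqp4, -0.14 for Slc1a3, -0.01 for Slc1a2, -0.15 for Gja1 and 0.31 for Gjb6. In hippocampus Aqp4 had 0.25 (adjusted p = 0.206, limma), Slc1a3 0.20 (adjusted p = 0.227) with 0.05 for its other probe, and Gjb6 0.18 (adjusted p = 0.216). These 3 genes passed when slide was a block, with 0.40 for Aqp4 (adjusted p = 0.0275), 0.35 for Slc1a3 (adjusted p = 0.0387) and 0.29 for Gjb6 (adjusted p = 0.04). In that fit Serpina3n no longer passed (1.01, adjusted p = 0.065). Slide 2 held no young hippocampus, so that slide and age were partly mixed in it.

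Sox9 was the member whose probes differed most in their age direction. The brightest gave 0.05 in hippocampus and -0.30 in cortex, and the other 3 gave -0.42 (adjusted p = 0.135, limma), -0.14 and 0.00 in hippocampus and -0.09, 0.38 and -0.41 in cortex. The -0.42 and -0.09 came from the probe well above background on only 14 hippocampal and 8 cortical arrays. The cortical signal of the brightest Sox9 probe also moved with the scan batch: the 15 arrays of batch 1 ran from 2.18 to 3.13 with a median of 2.45, and the 9 later ones from 2.30 to 3.76 with a median of 3.32. The batches overlapped, and no age direction of Sox9 held over its probes.

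**Figure D3:**
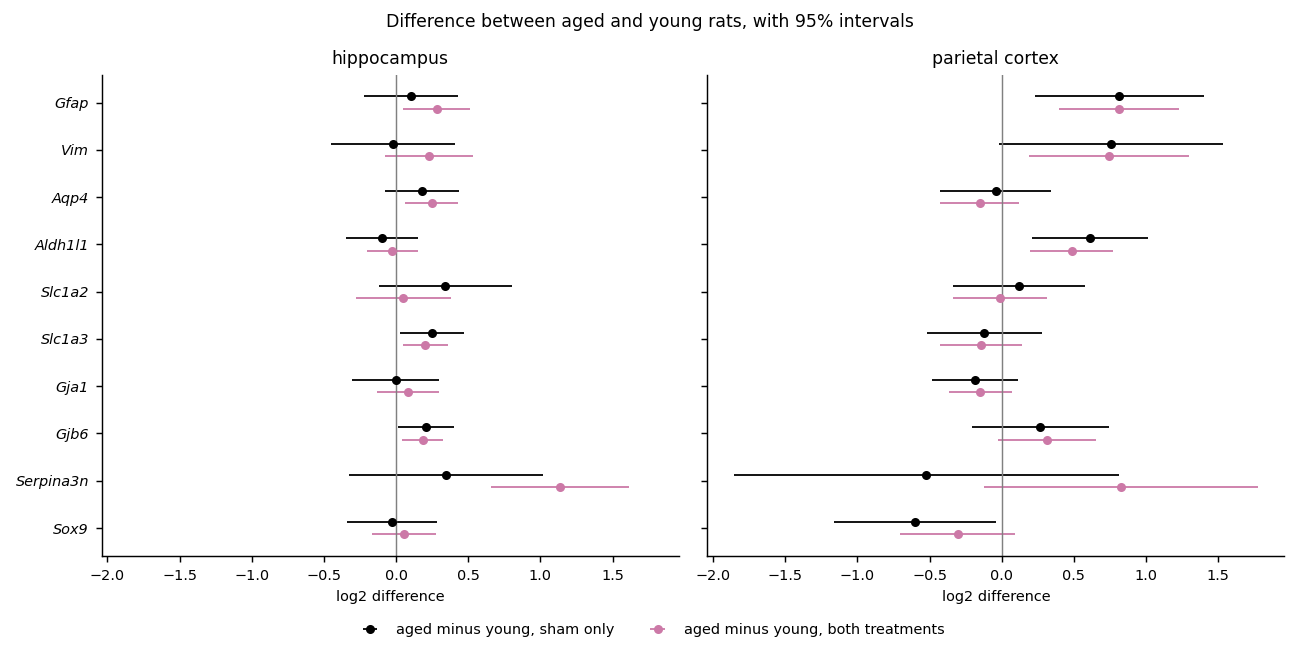
Aged minus young difference (horizontal axes, log2, with 95% intervals) for the 10 members in hippocampus and parietal cortex, among sham rats (black) and over both treatments (pink). In hippocampus the pink Serpina3n interval of 0.66 to 1.61 is the one that passed, and in cortex the intervals of Gfap, Vim and Aldh1l1 lie above 0 over both treatments without passing after adjustment.

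No member passed in AU or AI against young sham rats or in AI against AU, in either region. The shares of all probes called were 0.00308% (AU) and 0% (AI) in hippocampus, 0.0552% (AU, 0.0429% higher in aged) and 0.0797% (AI, 0.0675% higher in aged) in cortex, and 0% for AI against AU in both. Among sham rats of both aged groups the cortical share was 0.117%. The young sham rats are shared by these comparisons, so that they are not independent of each other. The largest hippocampal values with p under 0.05 for AI were 0.29 for both Slc1a3 (adjusted p = 0.428, limma) and Gjb6 (adjusted p = 0.414), and in cortex Aldh1l1 had 0.65 in AI (adjusted p = 0.464) and 0.58 in AU (adjusted p = 0.46).

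Of all hippocampal probes 0.386% were called higher in aged rats over both treatments and 0.139% lower. Around Serpina3n in aged hippocampus, 4 of 29 tested reactive astrocyte genes were higher and 1 lower over both treatments. The 4 were C3 (1.33) and C4b (1.16), components of complement, Aspg (0.98), an asparaginase, and Serping1 (0.89), the inhibitor of the first complement component; Ptx3 was lower (-0.76). In cortex 2 of 30 were called, C3 (1.36) and C4b (1.22), against 0.414% of all probes. Of the 34 further astrocyte genes 1 was called in hippocampus, Pla2g7 (0.48), a lipoprotein-associated phospholipase, and 0 in cortex (limma; 5 of the 34 had an unadjusted p under 0.05 there).

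Microglia markers moved with age in the same hippocampi: 3 of 12 were higher (Cd68 by 0.78, Trem2 by 0.50, Ctss by 0.40), against 0.386% of all probes, with a median of 0.37 over the list. All 12 were well above background on every hippocampal array, and their mean level ran from 4.94 to 5.10 in Y_Sham, 4.93 to 5.17 in Y_iTBS, 5.16 to 5.31 in AU_Sham, 5.19 to 5.37 in AU_iTBS, 5.19 to 5.52 in AI_Sham and 5.36 to 5.56 in AI_iTBS. Their part in the Serpina3n difference was not tested. The neuron, oligodendrocyte, endothelial, choroid plexus and meningeal lists had 0 genes called with age in either region (limma), with between 0 and 3 genes of a list at an unadjusted p under 0.05 in each direction.

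The third comparison, iTBS against sham, was the question of the study. No member passed in any of the 3 kinds of rat, in the aged rats together, or in the contrast of the aged and young responses, in either region. In hippocampus 0% of probes were called in each of these comparisons, and in cortex 0% except for AU rats, where the share was 0.0153%. At an unadjusted p under 0.05, 1 member in hippocampus (Serpina3n, in AI rats) and 2 in cortex (Aqp4 and Gja1, in AU rats) stood out among the single groups of rats.

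Serpina3n in AI hippocampus had an iTBS minus sham difference of 1.36 on the log2 scale, or 2.57-fold (SE 0.402, 95% interval 0.52 to 2.20, adjusted p = 1.00, limma), where 2.19% of probes had an unadjusted p under 0.05. The 3 AI_iTBS values of 0.59, -0.80 and 0.32 lay above the 4 AI_Sham values, of which the highest was -0.93, so that the groups did not overlap, but by a narrow margin. Leaving out 1 rat at a time gave 1.09 to 1.78, and the batches gave 1.22 and 1.51. In AU hippocampus the difference was 0.52 (adjusted p = 1.00, limma), with 0.95 in batch 1 and -0.26 later, and in young hippocampus it was -0.64 (adjusted p = 0.871), with -1.15 in batch 1 and 0.48 later. In the later batches these values set 3 AU_iTBS rats against 1 AU_Sham rat, and 1 Y_iTBS rat against 2 Y_Sham rats, and the AI value there set 1 rat against 1, so that they carry no spread of their own. In batch 1 the AU_Sham hippocampi lay on slide 1 and the AU_iTBS ones on slide 2. For the AU value of 0.95, treatment and slide therefore cannot be told apart.

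In aged rats together the hippocampal Serpina3n difference was 0.94 (SE 0.267, adjusted p = 0.969, limma), and the aged response minus the young one was 1.59 (SE 0.458, adjusted p = 0.757), of which batch 1 gave 2.24 and the later batches 0.14. The 2.24 includes the AU rats of batch 1, whose treatment and slide cannot be told apart. In cortex the difference was 1.03 in AU rats (adjusted p = 0.652, limma) and 1.32 in AI rats (adjusted p = 1.00). For young rats only the comparison with the limit above is given, since no Y_iTBS cortex was well above background. The cortical values were -3.32, -3.69, -1.44 and -1.28 in Y_Sham, -3.79, -3.04, -4.75 and -4.27 in Y_iTBS, -3.05, -3.20, -4.03 and -2.58 in AU_Sham, -2.33, -2.27, -1.73, -3.41 and -1.21 in AU_iTBS, -2.77, -4.33, -2.36 and -1.32 in AI_Sham and -1.10, -3.43 and 0.42 in AI_iTBS. Every iTBS group overlapped its sham group in cortex, and 12 of these 24 values were not well above background.

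Aqp4 in AU cortex had an iTBS minus sham difference of -0.49 (SE 0.202, 95% interval -0.91 to -0.07, adjusted p = 0.645, limma), where 7.29% of probes had an unadjusted p under 0.05. The AU_Sham cortices gave 8.65, 8.23, 8.57 and 8.71, and the AU_iTBS cortices 7.80, 7.83, 7.65, 8.75 and 8.21. The 3 lowest AU_iTBS values came from the 3 rats scanned in batch 2 and were below every other cortex in the study. Within batch 1 the difference was -0.02 and in the later batch -0.89, with 1 AU_Sham rat on the later side.

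Gja1 in the same rats had -0.35 (SE 0.157, adjusted p = 0.645, limma), -0.20 in batch 1 and -0.64 later. Its values were 6.94, 6.70, 6.49 and 6.61 in AU_Sham and 6.58, 6.07, 6.25, 6.53 and 6.27 in AU_iTBS, and the groups overlapped. Slc1a3 resembled Aqp4, with 8.22, 8.10 and 8.00 in the AU_iTBS cortices of batch 2 and 9.06 and 8.53 in those of batch 1. Over all groups, AU_iTBS included, later cortices had lower medians than batch 1 for Slc1a2 (6.04 against 6.73), Gjb6 (6.03 against 6.63), Slc1a3, Aqp4 and Vim. Their medians were higher for Gfap, Aldh1l1, Gja1, Serpina3n and Sox9. Batch 2 held 3 of 5 AU_iTBS and 1 of 4 AU_Sham cortices, so that treatment and batch were partly mixed. For iTBS against sham in AU cortex, 8 of 10 members had negative differences, none past the test, with a median of -0.38 against 0.04 over all probes. Meningeal fibroblast markers had negative differences as well, 6 of 6 with a median of -1.22 and 4 at an unadjusted p under 0.05, with a mean level of 1.72 to 3.60 in AU_Sham and 0.13 to 2.74 in AU_iTBS; their part in these differences was not tested.

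**Figure D4:**
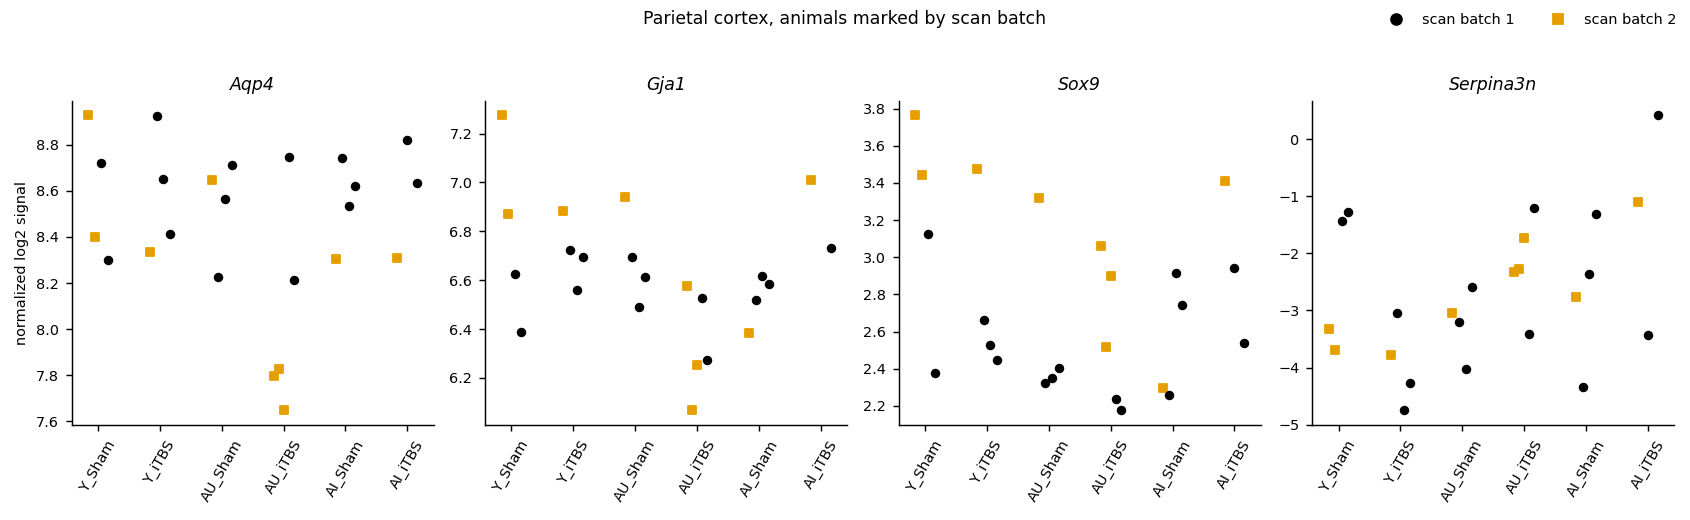
Normalized log2 signal (vertical axes) of Aqp4, Gja1, Sox9 and Serpina3n in the parietal cortex of each rat by group (horizontal axes), with black circles for scan batch 1 and orange squares for scan batch 2. The 3 orange AU_iTBS squares of Aqp4, at 7.65 to 7.83, are the lowest of that panel, and most orange squares of Sox9 lie above the black circles.

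Gfap, the usual sign of astrocyte reactivity, had iTBS differences of -0.24 in young, -0.11 in AU and 0.35 in AI hippocampus (adjusted p = 1.00 for AI, limma) and of 0.17, 0.06 and 0.26 in cortex, none past the test. Vim in aged cortex had -0.66 (SE 0.309, adjusted p = 1.00, limma), with -0.88 in batch 1 and -0.43 later. The AU_iTBS cortices of Vim spread from 2.76 to 5.26, more widely than any sham group. Group means of Aqp4 in hippocampus ran from 8.53 in Y_iTBS to 8.90 in AI_Sham, those of Slc1a3 from 8.57 in Y_Sham to 8.86 in AI_Sham, those of Gjb6 from 6.20 in Y_iTBS to 6.53 in AI_Sham, those of Gja1 from 6.89 in Y_iTBS to 7.07 in AU_Sham and AI_iTBS, those of Slc1a2 from 6.34 in Y_Sham to 6.73 in AU_Sham and those of Aldh1l1 from 4.59 in AU_Sham to 4.80 in AI_iTBS. For these 6 genes neighbours in the order of groups lay within the larger of their SDs. In cortex the means of Aqp4 ran from 8.05 in AU_iTBS to 8.59 in Y_Sham and AI_iTBS, those of Slc1a3 from 8.38 in AU_iTBS to 8.83 in AI_iTBS, those of Gjb6 from 5.92 in Y_iTBS to 6.59 in both aged sham groups, those of Gja1 from 6.34 in AU_iTBS to 6.87 in AI_iTBS, those of Slc1a2 from 6.32 in AI_iTBS to 6.79 in AU_Sham and those of Aldh1l1 from 3.96 in Y_Sham to 4.64 in AI_iTBS. The step of Aqp4 from AU_iTBS to AU_Sham was the only one of these beyond the larger SD.

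**Figure D5:**
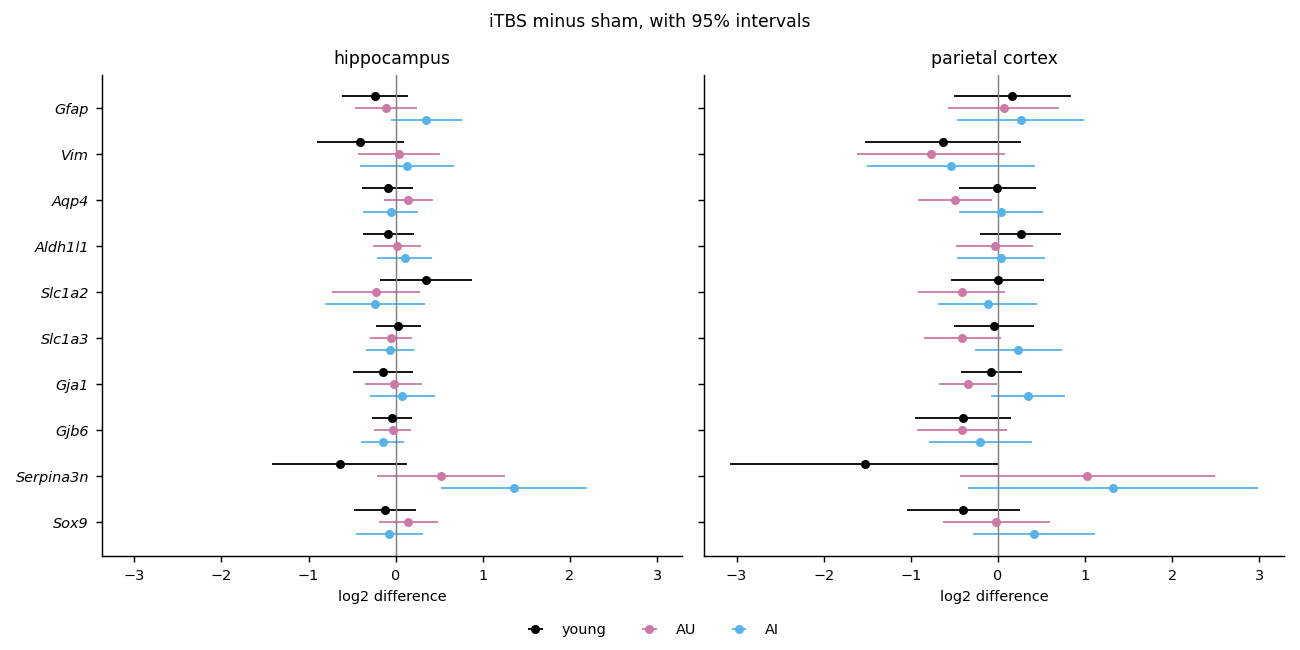
iTBS minus sham difference (horizontal axes, log2, with 95% intervals) for the 10 members in hippocampus and parietal cortex, in young (black), AU (pink) and AI (blue) rats. Serpina3n has the widest intervals in both regions, and its AI interval in hippocampus, 0.52 to 2.20, lies above 0 while no member passed after adjustment. The young cortical interval of Serpina3n rests on iTBS signals not well above background.

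The members varied together only in part. Over the 24 hippocampi the 45 pairwise correlations had a median r of 0.23 and ran from -0.63 for Slc1a2 with Sox9 to 0.80 for Aqp4 with Slc1a3. In cortex the median was 0.01, with 0.90 for Aqp4 with Slc1a3, 0.79 for Gfap with Aldh1l1 and -0.50 for Slc1a2 with Sox9. After removal of scan batch means the Slc1a2 and Sox9 value was -0.20 in hippocampus and -0.12 in cortex, while Aqp4 and Slc1a3 kept 0.86 and 0.87. The arrays share group and slide as well as batch, so these values are a description. Aqp4 and Slc1a3, a pair of membrane proteins of perisynaptic and perivascular processes, were the closest pair in both regions.

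The named genes whose level over the 24 animals was most like the mean of the 10 scaled members were, in hippocampus, Cryab (r = 0.89), a small heat shock protein, Serping1 (0.88), Idh2 (0.87), a mitochondrial isocitrate dehydrogenase, Acss1 (0.85), a mitochondrial acetyl-CoA synthetase, and Plaat3 (0.85), a phospholipase, out of 13346 genes. In cortex they included Cpq (0.92), a carboxypeptidase, Cd48 (0.84), an immune cell surface protein, Rras (0.83), a small GTPase, and Ifi30 (0.82), a lysosomal thiol reductase, out of 13323 genes.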

How the data were processed

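Total RNA was labeled with 1 dye and hybridized to Agilent rat arrays, which the authors read with Feature Extraction 12.0.3.1. Each of the 56 deposited files held the processed signal intensity of 62976 features, not normalized between arrays. The authors also deposited a table of z-scores, used as an alternative score here. Of the arrays 48 were the first of a rat and region, 7 were technical repeats and 1 could not be assigned to a group. Outlier spots, 267 to 1448 on an array, were dropped before the copies of each probe were averaged. Each array's log2 intensities were centered and divided by their SD over non-control probes, as the study did, and then put back on a log2 scale with a common SD of 4.08. Probes well above background in at least 3 of 24 animals were tested with limma 3.58.1 in R 4.3.3, with 6 group means per region, or on the hippocampus minus cortex difference of each animal. P-values were adjusted over all probes tested (Benjamini-Hochberg, threshold 0.05). The study's own rule combined an analysis of variance, a z-test, a false discovery rate, a z-ratio and the mean signal. The labels give 24 different animals, 16 of them aged, and these were taken as separate rats. The study's methods give 8 aged rats for this experiment, a mismatch that could not be settled here and that bears on every n and p of the aged groups. The number of arrays limits the precision. Probes were named through RefSeq accessions, 46.3% of them with a symbol. A gene with several probes was represented by the brightest, all 10 members were named in every comparison, and of each other list up to 6 called genes were named by smallest p. The members, gene lists and tests were chosen with earlier results of these data known. Values within scan batches were added after the data were seen. The fit was tested on simulated data. Alternatives were another scaling (75th percentile, quantile, the deposited z-scores), normexp background correction, other filters on dim probes, scan batch, slide or replicate number as a block, averaged repeats, the study's rule, and leaving out each animal. Of the genes examined, 2 are not reported here.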

Additional observations from a re-analysis of the deposited data

Results flagged for a closer look

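Of 100 groups of 4 or 5 animals (10 genes, both regions), 6 held a value set apart from the rest by Dixon's test, and chance alone gives about 1 in 20. In hippocampus these were the Gfap signal of Y_Sham 4 (4.50, the lowest of the 24), the Aldh1l1 signal of AI_Sham 2 (5.12, the highest of the 24), the Slc1a2 signal of AU_Sham 1 (5.82, the lowest of the 24) and the Slc1a3 signal of AI_Sham 2 (8.51). In cortex they were the Vim signal of Y_Sham 3 (4.98) and the Sox9 signal of AU_Sham 1 (3.32). The arrays of AU_Sham 1 came from the later scan batches and those of the other animals named here from batch 1.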

How the results depend on the processing

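Over 25 comparisons of the 10 members, 44 of 250 values had an unadjusted p under 0.05 (limma) and 12 passed after adjustment. No value of the 44 changed sign under any of the 14 alternative settings or on leaving out an animal. Their choice by p in the main fit made a change of sign unlikely beforehand. Of the other 206 values, 58 changed sign under some alternative and 82 on leaving out an animal. The study's rule called 1 member, Gfap, in cortex for the age effect in sham, for AU against young and for AI against young, where limma called 0. For age in hippocampus over both treatments (1 called) the count was 0 with a filter on a mean z-score above 0, which left Serpina3n untested, and 3 with slide as a block; leaving out 1 animal gave 0 to 1, with 0 without Y_Sham 1, 2 or 4 or Y_iTBS 2, 3 or 4. For age in cortex (0 called) leaving out 1 animal gave 0 to 1, with 1, Gfap, without AI_Sham 2 or AU_iTBS 4. The region call of Aldh1l1 in sham rats was also lost with no filter (adjusted p = 0.0615) and with slide as a block (adjusted p = 0.0519), and Aqp4 passed in sham rats with 75th percentile scaling (0.25), normexp (0.27) and quantile normalization (0.33). Over all groups Slc1a3 passed with normexp (0.14, adjusted p = 0.0171) and quantile normalization (0.13, adjusted p = 0.0301), and Vim (0.27, adjusted p = 0.059) passed with a mean z-score above 0 (adjusted p = 0.0464) and without AI_Sham 4 (0.34, adjusted p = 0.00663), AU_iTBS 2, AU_iTBS 3, Y_Sham 3 or Y_iTBS 2. The cause was not tested. Same-numbered sham and iTBS animals deviated together in some pairs only (r from -0.09 to 0.38 in hippocampus, 2 of 11 pairs over 0.1, and -0.27 to 0.39 in cortex, 6 of 11, among them the 3 AI pairs at 0.14 to 0.39), so the numbers were not taken as pairing them; the replicate block left every count of members as it was and gave 174 probes against 170 in hippocampus and 74 against 135 in cortex for age over both treatments. Over the alternatives other than leaving out an animal, all-probe counts ran from 131 to 2043 for age over both treatments in hippocampus and 58 to 207 in cortex, 0 to 77 and 11 to 180 for age in sham, 0 to 26 for iTBS in AU cortex, 4 to 138 for AU and 1 to 187 for AI against young in cortex, 0 to 890 for AI against young in hippocampus, 0 to 56 and 0 to 45 for young iTBS in hippocampus and cortex, and 8579 to 12659 for the region difference in sham.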

Other observations

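The 7 technical repeats, which entered no main comparison, gave the error of the array itself. In 6 of them the median absolute difference from the first array over the members was 0.044 to 0.154 (log2), and the member that differed most was Sox9 each time (0.22 to 0.69). The repeat of AI_iTBS 2 cortex stood apart, with a median of 0.265 and Gfap at 3.20 against 4.17 on the first array. Over 1000 probes its deviations were most like those of AI_Sham 2 (r = 0.458) and not like those of its own first array (r = 0.003).

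On the hippocampal array placed in no group, whose labels name different animals, Gfap stood at 5.07, Vim at 3.99, Aqp4 at 8.59, Aldh1l1 at 4.63, Slc1a2 at 6.80, Slc1a3 at 8.51, Gja1 at 6.70, Gjb6 at 6.15, Serpina3n at -0.69 and Sox9 at 3.29. All but Vim lay inside the range of the 24 assigned hippocampi.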
